A study of Mus musculus with 11 samples.

Results

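The Il6-positive adipose stem cells (ASC) described here were 212 cells of the stromal vascular fraction of mouse perigonadal white adipose tissue (pgWAT), out of 3261 sequenced cells. They were chosen by their own reads. A cell was taken as an ASC if Pdgfra, the platelet-derived growth factor receptor that marks fibroblast-like stem cells, reached 20 CPM (counts of a gene scaled to a common total of gene reads per cell) and the endothelial genes Pecam1, Cdh5 and Kdr together stayed under 50 CPM, which held for 2052 cells. Of these, 1383 had Dpp4, the surface peptidase of a separate ASC population, under 10 CPM. Low Dpp4 RNA did not exclude cells of that population, as 103 of the 1383 came from a plate sorted for DPP4. Within these Dpp4-low ASC, Il6 at 50 CPM or more made a cell Il6-positive. The comparison cells were 1084 Dpp4-low ASC with Il6 under 10 CPM from plates that also held Il6-positive cells, and 675 of them had no Il6 read at all. A further 85 cells lay between the limits, and 2 Il6-low cells came from a plate without an Il6-positive cell. Il6, Dpp4, Pdgfra, Pecam1, Cdh5 and Kdr therefore describe the selection and were not tested.

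Cells came from 11 plates with 7 mouse ids, 3 of male mice (1, 4 and 8) and 4 of female mice (2, 3, 5 and 6_7, the last naming 2 animals). All mice carried the Tg(Pdgfrb-eGFP) reporter, in which a Pdgfrb transgene drives green fluorescent protein, were backcrossed to C57BL6/J and were 12 to 20 weeks old. None was treated, so male and female were the only groups. The tissue was digested with collagenase at 37 °C and single CD45-negative cells were sorted into wells for Smart-seq2, which covers whole transcripts and counts reads rather than tagged molecules. The sorts differed by plate in their gates on CD31, the PDGFRB reporter and DPP4. Mice 2 and 6_7 gave Il6-positive cells from 2 plates each and the other 5 ids from 1 plate each, so plate and mouse cannot be told apart for those 5.

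Interleukin-6 is a secreted cytokine that signals through its own receptor and the shared receptor chain gp130, which activates the transcription factor STAT3. STAT3 in turn induces Socs3, an inhibitor of the same pathway. Il6 transcription is known to follow inflammatory and stress signals through NF-kB, AP-1 and C/EBP factors. Fibroblasts and adipose stromal cells are well-known sources of the cytokine in fat. Immediate early genes such as Fos, Egr1 and Zfp36 are induced within minutes by many stimuli, enzymatic digestion of tissue among them.

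The sequence before the Il6 start shows recognition letters for these factors and is given for that reason. Il6 lies at chr5:30013114-30019981 on the plus strand of GRCm38, and the 250 bases before its RefSeq start are chr5:30012864-30013113 of GRCm38.p6. Capitals mark, in order, AP-1 letters (TGANTCA) 249 to 243 bases before the start, C/EBP letters (TTGCNNAA) 128 to 121 bases before it and a kappa-B motif 44 to 35 bases before it.
Il6: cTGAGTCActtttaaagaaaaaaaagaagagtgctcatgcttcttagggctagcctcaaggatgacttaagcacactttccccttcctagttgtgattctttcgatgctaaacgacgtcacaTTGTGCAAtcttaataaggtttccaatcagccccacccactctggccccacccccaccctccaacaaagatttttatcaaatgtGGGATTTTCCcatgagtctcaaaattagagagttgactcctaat
Both strands were searched. Among 32851 RefSeq mouse promoter windows of this length, 6.75% held the AP-1 letters, 9.56% the C/EBP letters and 3.90% the kappa-B motif. A match describes the letters and was not tested as a binding site.

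Il6 ranged from 50.02 to 2706 CPM across the 212 cells, with a median of 194 CPM. The level rested on 8 to 2030 Il6 reads per cell (median 119.5) among 150137 to 2658393 gene reads. By mouse id, the median was 131 CPM in mouse 1, 192 CPM in mouse 4, 151 CPM in mouse 8, 202 CPM in mouse 2, 114 CPM in mouse 3, 80.3 CPM in mouse 5 and 291 CPM in mouse 6_7. The 3 male medians lay within the range of the female ones. Just inside the limit, 3 cells had 50.02, 50.4 and 51.2 CPM, and just outside it 3 had 47.7, 48.6 and 48.6 CPM. The highest comparison cells stood at 9.91, 9.92 and 9.98 CPM.

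Il6-positive cells were found at every mouse id, and at 6 of 7 they made up between 9.52% and 21.6% of the Dpp4-low ASC. In male mice the share was 2 of 142 cells in mouse 1 (1.41%, Wilson 95% interval 0.387 to 4.99%), 33 of 262 in mouse 4 (12.6%, 9.11 to 17.2%) and 18 of 115 in mouse 8 (15.7%, 10.1 to 23.4%). In female mice it was 88 of 452 in mouse 2 (19.5%, 16.1 to 23.4%), 28 of 178 in mouse 3 (15.7%, 11.1 to 21.8%), 6 of 63 in mouse 5 (9.52%, 4.44 to 19.3%) and 37 of 171 in mouse 6_7 (21.6%, 16.1 to 28.4%). The intervals cover counting error only. Within mouse 2 the share was 14 of 103 cells (13.6%) on the plate sorted for DPP4 and 74 of 349 (21.2%) on the DPP4-negative plate, and within mouse 6_7 32 of 147 (21.8%) on its CD31-negative plate and 5 of 24 (20.8%) on the other. Mouse 1 was the low value, and the male and female ranges overlapped. The mean share was 9.89% ± 7.5 (SD, n = 3) in males and 16.6% ± 5.31 (SD, n = 4) in females, a difference of -6.71 percentage points (exact permutation test, two-sided, p = 0.229, where the smallest p possible was 0.0571). Without mouse 1 the difference was -2.47 points.

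**Figure D1:**
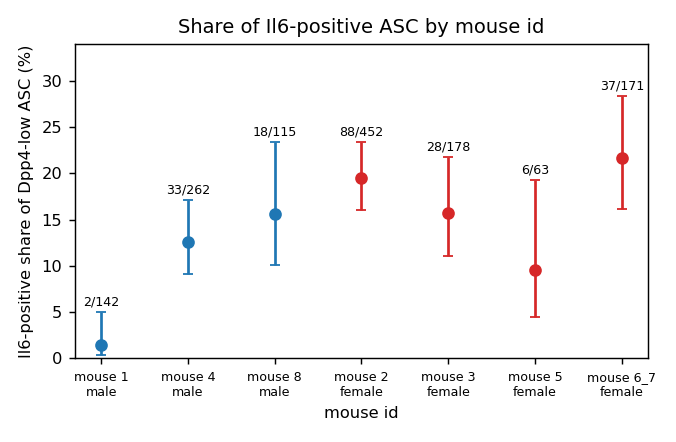
Share of Il6-positive cells among Dpp4-low ASC (y axis, percent) in each mouse id (x axis), with Wilson 95% intervals as bars, for male and female mice. Mouse 1 lies at 1.41% and the other 6 ids lie between 9.52% and 21.6%.

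A pair of ribosomal RNA entries took a large and uneven part of the gene reads, and this touched the share. In the Il6-low cells these entries held 65.1% of gene reads in mouse 1, 57.9% in mouse 8 and 54.4% in mouse 5, against 29.0 to 33.4% in mice 2, 3, 4 and 6_7. When CPM was computed without them, 230 cells were Il6-positive, of which 199 were among the 212. The share then came to 1.33% in mouse 1, 15.4% in mouse 4, 21.1% in mouse 8, 21.4% in mouse 2, 16.6% in mouse 3, 18% in mouse 5 and 24.4% in mouse 6_7.

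Apart from Il6, the cells had the transcripts of ASC. Beside Pdgfra, which the rule required, reads of Col1a1, Col1a2, Dcn, Lum, Cd34 and Ly6a, collagen, proteoglycan and surface genes of fibroblasts, were present in 100% of the 212 cells. In the Il6-low cells these genes were read in 99.63 to 100%. Of the other ASC identity genes, Pdgfrb was read in 99.53% of the 212 cells, Itgb1 in 97.17% and Thy1 in 57.55%. In the Il6-low cells the values were 98.89%, 97.79% and 53.23%. Among the marker lists of other cell types Krt18, Fgfr4 and Cpa3 were at 0 reads, while Wt1 of the mesothelial list was read in 78.8% of the cells and in 76.3% of the Il6-low cells, Tek of the endothelial list in 66.5% and 67.1%, Acta2 of the mural list in 39.6% and 47.6%, and Car3 of the adipocyte list in 38.7% and 34%. Of the other 3 genes proposed as their markers, the data set apart only Mt2, a zinc-binding metallothionein, and its difference missed the threshold after adjustment. Mmp3, the matrix metalloproteinase stromelysin, and G0s2, an inhibitor of the triglyceride lipase ATGL, did not separate the groups. The cells are therefore called by their rule, Il6-positive.

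Depth and RNA quality of the Il6-positive and Il6-low cells had close averages. For the 5 mouse ids with at least 10 cells of each kind (2, 3, 4, 8 and 6_7), the mean of the median reads per cell was 613386 in Il6-positive and 593436 in Il6-low cells (exact paired permutation test, p = 0.5). The median was the higher in Il6-positive cells of 4 ids and the lower in mouse 6_7 (534043 against 596560). With Il6 at 100 CPM or more, the means were 675545 and 593436 (the same exact test, p = 0.125). Median detected genes averaged 5495 and 5472 (the same exact test, p = 0.8125). By the same exact test, the spike-in share averaged 1.12% and 1.14% (p = 0.8125) and the mitochondrial share 1.13% and 1.12% (p = 0.75). With 5 pairs the smallest p possible was 0.0625. No cell name occurred more than once and 0 of 3261 cells had counts identical to those of another cell.

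To compare expression, reads were summed over the cells of each kind within a mouse id and tested in pairs over the 5 ids, with 18 to 88 Il6-positive cells per sum, by edgeR's quasi-likelihood test with Benjamini-Hochberg adjustment over 10300 genes. A gene was called with an adjusted p under 0.05 and a fold over 2.6. Only 1 gene was called, 0.00971% of those tested, and 2 passed the adjusted p alone, 0.0194%. Without mouse 8 the number called was 2. At an unadjusted p under 0.05, 266 genes (2.58%) were higher and 242 (2.35%) lower in Il6-positive cells. Normalized CPM below are levels of these sums.

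The called gene was Has1 (ENSMUSG00000003665, chr17:17843323-17855205 on the minus strand), hyaluronan synthase 1, which makes the matrix polysaccharide hyaluronan at the cell membrane. In mouse 4 the Il6-positive cells had 1250 CPM and the Il6-low cells 256 CPM. In mouse 8 the values were 749 and 186 CPM. They were 416 and 113 CPM in mouse 2, 472 and 67.0 CPM in mouse 3, and 238 and 39.6 CPM in mouse 6_7. Has1 was higher in Il6-positive cells of every mouse id, and the groups overlapped only through the high Il6-low level of mouse 4 and the low Il6-positive level of mouse 6_7. Means were 625 ± 395 and 132 ± 88.8 CPM (SD, n = 5). Has1 rose by a log2 fold change of 2.31 (SE 0.16), 4.98-fold, with an adjusted p of 0.00173. When any 1 mouse id was left out, the log2 fold change stayed between 2.19 and 2.43 and the adjusted p between 0.0053 and 0.042.

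Zfp36 encodes tristetraprolin, an RNA-binding protein that speeds the decay of cytokine mRNAs and is itself an immediate early gene. It passed the adjusted p but not the fold limit. The Il6-positive and Il6-low levels were 3117 and 1594 CPM in mouse 4, 4111 and 1480 CPM in mouse 8, and 4331 and 2483 CPM in mouse 2. They were 2409 and 1250 CPM in mouse 3 and 2302 and 1128 CPM in mouse 6_7. Each id was higher in its Il6-positive cells, by a log2 fold change of 1.04 (SE 0.11, adjusted p = 0.0245). The adjusted p rose to 0.114 without mouse 2, 0.164 without mouse 3, 0.111 without mouse 4 and 0.231 without mouse 6_7, so 4 of the 5 ids were each needed. Zfp36 (chr7:28376784-28380253) overlaps Gm44710 on the other strand, and reads of the pair cannot be told apart in this protocol.

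**Figure D2:**
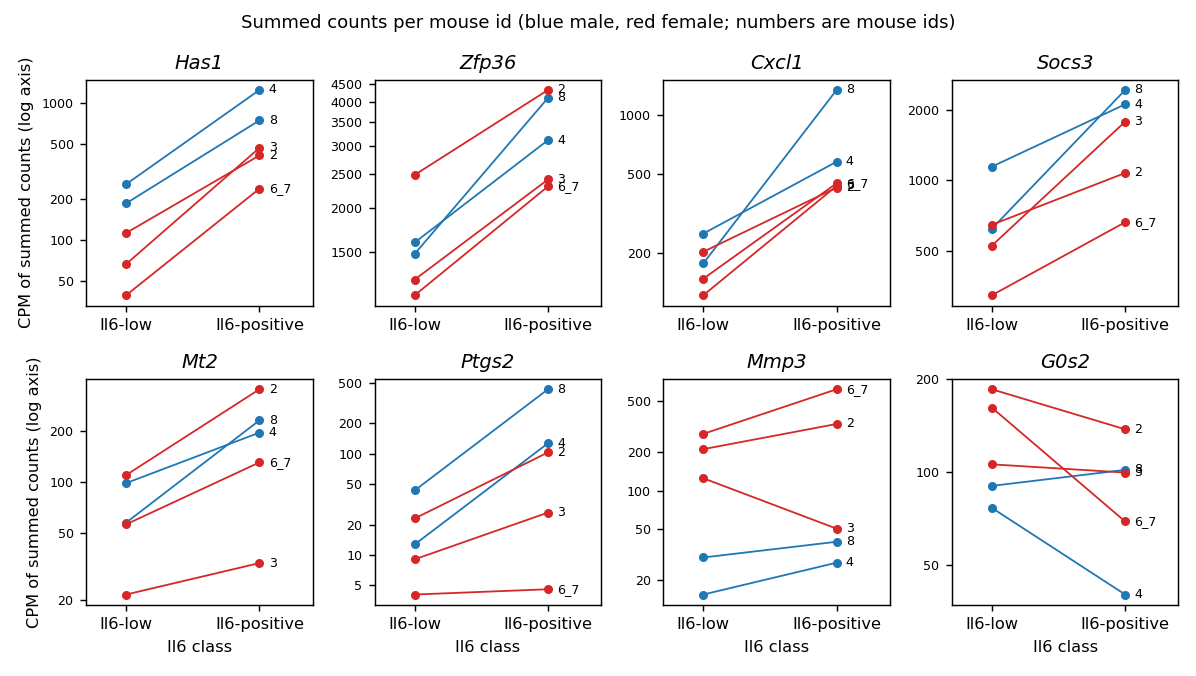
Normalized CPM (y axis, log scale) of summed Il6-low and Il6-positive cells (x axis), joined by a line for each of 5 mouse ids (male blue, female red), for Has1, Zfp36, Cxcl1, Socs3, Mt2, Ptgs2, Mmp3 and G0s2. The Has1 line of every id rises, from between 39.6 and 256 CPM to between 238 and 1250 CPM.

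The 3 genes proposed with Il6 as markers of these cells behaved differently from each other. Mt2 had 196 against 98.5 CPM in mouse 4, 232 against 57.5 CPM in mouse 8, 355 against 110 CPM in mouse 2, 33.1 against 21.5 CPM in mouse 3 and 131 against 56.1 CPM in mouse 6_7. That is higher in 5 of 5 ids, with a log2 difference of 1.31 (SE 0.21) and an adjusted p of 0.0922. Mmp3 had 27.5 against 15.5 CPM in mouse 4, 40.0 against 30.2 CPM in mouse 8, 334 against 212 CPM in mouse 2, 50.7 against 126 CPM in mouse 3 and 623 against 279 CPM in mouse 6_7. It was higher in 4 of 5 ids, with a log2 difference of 0.38 (SE 0.32) and an adjusted p of 0.918. G0s2 had 39.9 against 76.4 CPM in mouse 4, 102 against 90.1 CPM in mouse 8, 138 against 186 CPM in mouse 2, 99.6 against 106 CPM in mouse 3 and 69.0 against 162 CPM in mouse 6_7, higher in 1 of 5 ids (log2 difference -0.50, SE 0.22, adjusted p = 0.903).

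The further genes named for the difference between Il6-positive and Il6-low cells were chosen after their values were seen, and none of them was called. Among chemokines, Cxcl1, a neutrophil attractant, had 577 against 250 CPM in mouse 4, 1330 against 177 CPM in mouse 8, 428 against 203 CPM in mouse 2, 436 against 122 CPM in mouse 3 and 449 against 148 CPM in mouse 6_7. The lowest Il6-positive level was thus above the highest Il6-low level, and the log2 difference was 1.71 (SE 0.25, adjusted p = 0.0741). Of 24 chemokines listed, 13 were measured well enough to be tested, 2 of which were higher at an unadjusted p under 0.05 and 0 lower. Cxcl12, which retains leukocytes and progenitors in tissue, was higher in 5 of 5 ids (log2 difference 0.53, adjusted p = 0.552). Ccl2, a monocyte attractant, was higher in 2 of 5 ids (log2 difference -0.14, adjusted p = 0.972). The median log2 difference over the 13 was 0.06, beside -0.07 over all genes tested.

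Of the tested genes of the IL-6 family and its signaling, 0 passed the adjusted p. Il6ra, the ligand-binding chain, had a log2 difference of -0.0032 (SE 0.33) and Il6st, the gp130 chain, one of -0.02 (SE 0.13). Lif, a related ligand, had -0.37 (SE 0.56) and Osmr, the oncostatin M receptor, 0.14 (SE 0.14). Socs3 had 2107 against 1142 CPM in mouse 4, 2426 against 621 CPM in mouse 8, 1073 against 645 CPM in mouse 2, 1777 against 525 CPM in mouse 3 and 661 against 322 CPM in mouse 6_7. Its log2 difference was 1.27 (SE 0.19), higher in 5 of 5 ids, with an adjusted p of 0.0794. Stat3 was higher in 5 of 5 ids by a log2 difference of 0.43 (SE 0.19, adjusted p = 0.903). Of 21 listed genes 16 were tested, 3 of them higher and 0 lower at an unadjusted p under 0.05, with a median of 0.08.

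Of the genes of the NF-kB pathway and its targets, 0 passed the adjusted p. Nfkbia, the inhibitor that holds NF-kB in the cytoplasm, had a log2 difference of 1.14 (SE 0.22, adjusted p = 0.191), and Nfkbiz, a nuclear cofactor needed for Il6 induction, one of 1.48 (SE 0.27, adjusted p = 0.166). Both were higher in 5 of 5 ids, as were Tnfaip3, the ubiquitin-editing inhibitor A20 (0.79, adjusted p = 0.574), and Birc3, a ubiquitin ligase of the pathway (1.03, adjusted p = 0.311). The subunit Nfkb1 had -0.18 (SE 0.38). Of 21 listed genes, 19 were tested, 6 were higher and 0 lower at an unadjusted p under 0.05, and 8 were higher in 5 of 5 ids, where 3.96% of all genes tested were. The median was 0.31.

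Immediate early genes formed the list with the highest median and the most genes below the unadjusted limit. Of 38 listed, 33 were tested and 31 had a positive log2 difference, 18 were higher and 0 lower at an unadjusted p under 0.05, and 15 were higher in 5 of 5 ids. Only Zfp36 passed the adjusted p. The median log2 difference was 0.58, beside -0.07 over all 10300 genes, of which 4469 were positive. Leaving out 1 mouse id at a time gave medians of 0.50 to 0.59. With limma on the mean log level over cells, 14 of the 33 were higher at an adjusted p under 0.05, where 0.544% of all genes were.

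Single members had modest differences. Junb, an AP-1 subunit, had 3606 against 2204 CPM in mouse 4, 4938 against 1840 CPM in mouse 8, 2241 against 1377 CPM in mouse 2, 3082 against 1767 CPM in mouse 3 and 1670 against 822 CPM in mouse 6_7 (log2 difference 0.93, SE 0.12, adjusted p = 0.0724). Fos, its dimer partner, had 0.58 (SE 0.10, adjusted p = 0.135) and was read at 50 CPM or more in 212 of 212 Il6-positive cells, but also in 97.0% of Il6-low cells. Jun had 0.37 (SE 0.14, adjusted p = 0.903). Myc, the growth transcription factor, had 1.10 (SE 0.15, adjusted p = 0.0724) and Egr1, a zinc finger factor, 0.58 (SE 0.08, adjusted p = 0.0728). Outside this list, Cebpd, a C/EBP factor that binds the Il6 promoter, had 0.88 (SE 0.12, adjusted p = 0.0728). Csrnp1, a serine-rich nuclear protein also outside the list, had 1.32 (SE 0.20, adjusted p = 0.0794). Each of these except Jun was higher in 5 of 5 ids.

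The summed level of the immediate early list was higher in the Il6-positive than in the Il6-low cells of every mouse id. Since the ribosomal RNA entries held such uneven shares, it is given in CPM of the gene reads outside them. It was 34070 CPM in Il6-low and 46363 CPM in Il6-positive cells of mouse 4, 35672 and 61982 CPM in mouse 8, and 37432 and 50270 CPM in mouse 2. It was 32643 and 46614 CPM in mouse 3 and 27058 and 40674 CPM in mouse 6_7. Mice 1 and 5, outside the test for lack of cells, had 22418 and 53532 CPM and 23189 and 27632 CPM. Over all gene reads the Il6-positive sum was also the higher in each id, but the Il6-low levels of the ids with large ribosomal RNA shares came out lower, at 7828 CPM in mouse 1, 10578 CPM in mouse 5 and 15004 CPM in mouse 8, against 25930 CPM in mouse 2. All cells went through the digestion and the sort, and no undigested sample was analysed here.

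**Figure D3:**
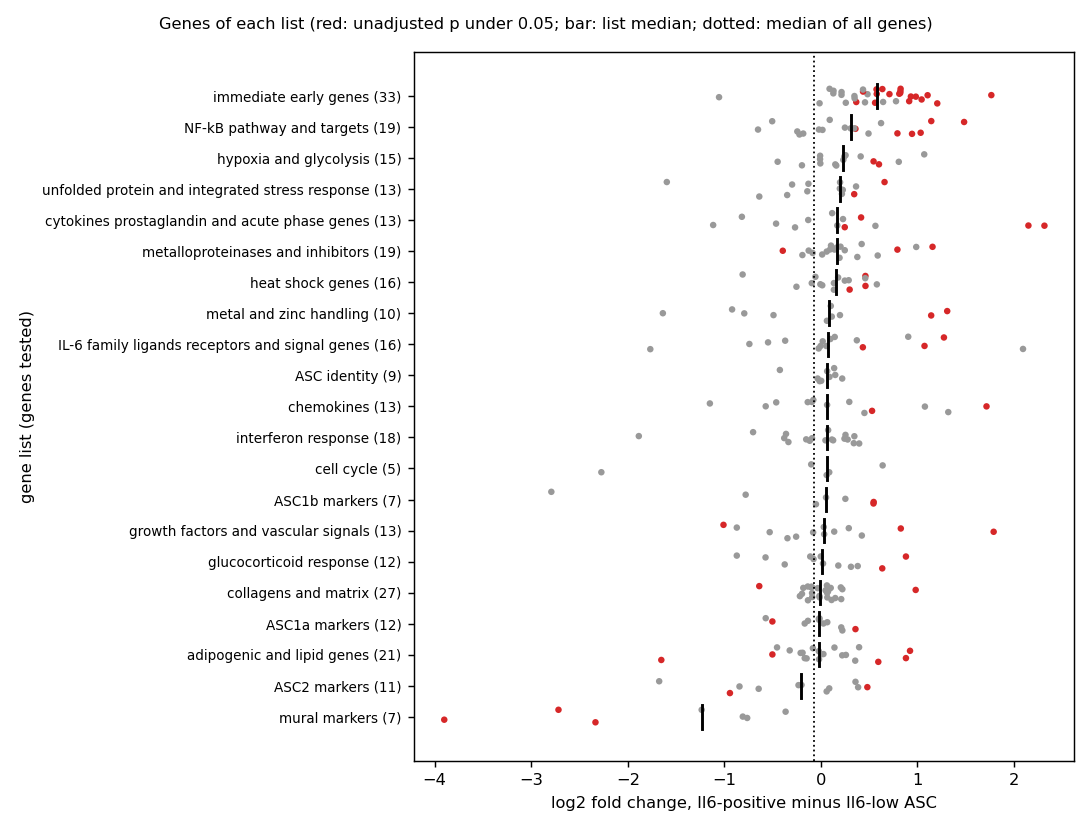
Log2 differences between Il6-positive and Il6-low cells (x axis) for the tested genes of each list (y axis), 1 point per gene, red at an unadjusted p under 0.05, with a bar at the list median and a dotted line at the median of all genes. In these summed counts the immediate early genes have the highest median, 0.58, and the mural markers the lowest, -1.23.

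Ptgs2, the inducible cyclooxygenase of prostaglandin synthesis, had 127 against 12.7 CPM in mouse 4, 433 against 43.4 CPM in mouse 8, 103 against 22.9 CPM in mouse 2, 26.2 against 9.07 CPM in mouse 3 and 4.59 against 4.07 CPM in mouse 6_7. The ratio was thus largest in the males, smaller in mice 2 and 3 and near 1 in mouse 6_7. The log2 difference of 2.15 (SE 0.45) had an adjusted p of 0.284. Hgf, a growth factor for epithelial and endothelial cells, was higher in 5 of 5 ids (1.79, SE 0.57, adjusted p = 0.843), at no more than 21.8 CPM. Arid5a, an RNA-binding protein that stabilizes Il6 mRNA and so opposes decay, had 99.7 against 16.8 CPM in mouse 4, 121 against 26.8 CPM in mouse 8, 29.7 against 8.28 CPM in mouse 2, 28.9 against 6.51 CPM in mouse 3 and 5.04 against 3.2 CPM in mouse 6_7. Its log2 difference was 1.90 (SE 0.30, adjusted p = 0.0922).

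No gene of the other stress lists passed the adjusted p. Of 16 heat shock genes 3 were higher and 0 lower at an unadjusted p under 0.05, with a median of 0.16. Hspa1a, the inducible chaperone, was higher in 2 of 5 ids (log2 difference -0.09, SE 0.24). Of 13 tested genes of the unfolded protein response 2 were higher (median 0.20), of 10 for metal handling 2 (median 0.08), of 12 glucocorticoid-responsive genes 2 (median 0.01) and of 15 for hypoxia and glycolysis 2 (median 0.23), with 0 lower in each. These shares lay above the 2.58% of all genes that were higher, and the medians above the -0.07 of all genes. Mt1, the neighbour of Mt2 in the metallothionein cluster, had 1.14 (SE 0.19, adjusted p = 0.116). The 18 tested interferon genes had 0 past the unadjusted limit in either direction.

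Matrix and adipogenic genes lay on both sides of 0. Of 27 collagen and matrix genes 1 was higher and 1 lower at an unadjusted p under 0.05, with a median of -0.01. Of 19 metalloproteinases and inhibitors 2 were higher and 1 lower (median 0.16). Adamts1, a secreted proteoglycan protease, was higher in 5 of 5 ids (0.79, SE 0.13, adjusted p = 0.108). Of 21 adipogenic and lipid genes 3 were higher and 2 lower (median -0.02), with Pparg, the master regulator of adipogenesis, at -0.02 (SE 0.40) and Lpl, lipoprotein lipase, at -0.17 (SE 0.11). The markers of the ASC1a, ASC1b and ASC2 populations had medians of -0.02, 0.05 and -0.20, with 1, 2 and 1 genes higher and 1, 0 and 1 lower. Pi16, a marker of ASC2, the Dpp4 population, reached 50 CPM in 42.9% of Il6-positive and 46.1% of Il6-low cells. Of 13 growth factor and vascular genes 2 were higher and 1 lower (median 0.03), and of 5 cell cycle and 9 ASC identity genes 0 passed the unadjusted limit.

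The summed markers of other cell types overlapped between the groups over the 5 ids. Those of macrophages reached 3.32 to 13.6 CPM of gene reads in the Il6-low and 0.930 to 18.7 CPM in the Il6-positive cells of the 5 ids. Endothelial markers reached 49.4 to 102 and 40.7 to 93.3 CPM, a list in which the rule itself capped Pecam1, Cdh5 and Kdr, mesothelial and epithelial markers 34.7 to 127 and 46.0 to 60.9 CPM, adipocyte markers 0.942 to 67.6 and 0.621 to 84.7 CPM, and lymphoid and mast cell markers 0.484 to 2.83 and 0.511 to 5.45 CPM. Of the mural cell markers, 7 of 10 could be tested, 0 had a positive log2 difference, and 3 were lower at an unadjusted p under 0.05, with a median of -1.23. With limma on the mean log level over cells their median was only -0.015, beside 0.03 over all genes. Acta2, smooth muscle actin, was lower in 5 of 5 ids, as were 4.58% of all genes (-2.33, SE 0.53, adjusted p = 0.391). The mural sum ran from 37.2 to 241 CPM in Il6-low and from 18.2 to 69.6 CPM in Il6-positive cells, and was the lower in Il6-positive cells of 4 ids but not of mouse 8 (47.1 against 37.2 CPM). In 14 of 1084 Il6-low cells Acta2, Myh11, Tagln and Rgs5 together reached 500 CPM, and in 0 of 212 Il6-positive cells, which allows a share of up to 1.42%, so no difference was detectable at this number of cells. The part of these 14 cells in the mural values was not tested.

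The windows before the starts of Has1 and Cxcl1 are printed because Has1 was the called gene and the Cxcl1 levels of the groups did not overlap. Capitals mark a CRE (TGACGTCA) 83 to 76 bases before the Has1 start and a pair of overlapping kappa-B matches, 71 to 61 bases before the Cxcl1 start. The Has1 window is the minus strand of chr17:17855206-17855438 and the Cxcl1 window the plus strand of chr5:90890995-90891240, both of GRCm38.p6. Positions count back from the RefSeq start, and the 17 and 4 bases nearest to it are left out because the annotation places them in an exon.
Has1: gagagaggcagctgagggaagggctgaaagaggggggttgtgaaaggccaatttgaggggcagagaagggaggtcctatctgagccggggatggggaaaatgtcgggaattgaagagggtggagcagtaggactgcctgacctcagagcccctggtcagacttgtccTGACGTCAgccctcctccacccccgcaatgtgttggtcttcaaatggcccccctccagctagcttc
Cxcl1: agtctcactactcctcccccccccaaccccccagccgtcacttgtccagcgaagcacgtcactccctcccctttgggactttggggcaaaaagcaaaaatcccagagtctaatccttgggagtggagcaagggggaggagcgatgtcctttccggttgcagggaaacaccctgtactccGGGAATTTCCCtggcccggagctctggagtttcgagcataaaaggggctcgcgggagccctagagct
The CRE letters stood in 1.55% and the kappa-B motif in 3.90% of all windows, and the letters TGCGCNC of a metal response element in 12.5%. The Mt2 window held AP-1 letters 79 to 73, metal response letters 128 to 122 and C/EBP letters 12 to 5 bases before the start. The windows of Zfp36, Socs3 and Junb held no match to the 5 motifs searched. In the full letters searched, none of the 5 motifs stood in all 3 of Il6, Has1 and Cxcl1, although Il6 and Cxcl1 both had kappa-B letters. All 3 printed windows hold ACGTCA, a part of the CRE letters, which the search did not count alone.

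Cells were also grouped by their Il6 level, to place the differences at or below the limit. The same 5 ids held 503 cells with no Il6 read, 392 with Il6 under 10 CPM, 79 with 10 to 50 CPM and 204 with 50 CPM or more. Mean Has1 over the ids was 132, 117, 250 and 587 CPM of gene reads in these 4 bands. Cxcl1 had 183, 186, 194 and 557 CPM, so the first 3 bands lay together. Socs3 had 591, 770, 787 and 1490 CPM, and Zfp36 1550, 1952, 1856 and 3175 CPM. Mt2 had 63.5, 83.0, 80.3 and 186 CPM. In the mean of each of these genes the cells of 10 to 50 CPM lay closer to the cells without Il6 than to the Il6-positive cells. By id, Has1 rose from the band under 10 CPM to that of 10 to 50 CPM in every id but mouse 2 (131.5 to 121.5 CPM). Over the last 3 bands it went from 295.4 to 491.8 and then 1223 CPM in mouse 4. In mouse 8 it went from 84.9 to 175.7 and then 381 CPM. Has1 went from 58.1 to 295 and then 557 CPM in mouse 3, and from 14.4 to 164 and then 267 CPM in mouse 6_7. The band of 10 to 50 CPM held 5 cells in mouse 3, and 6 and 3 on the 2 plates of mouse 6_7. Socs3 of mouse 3 went from 739 to 1303 and then 2099 CPM. The bands were not tested.

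**Figure D4:**
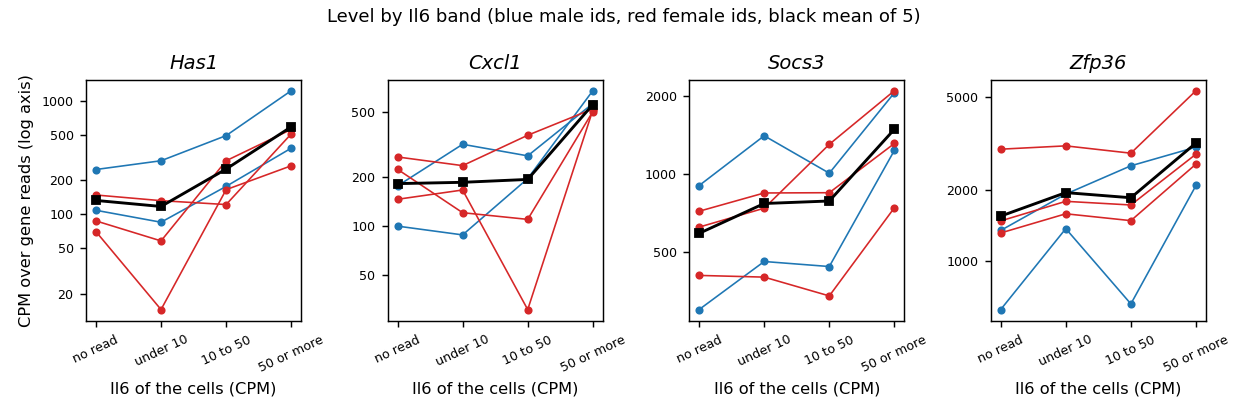
Levels of Has1, Cxcl1, Socs3 and Zfp36 (y axis, CPM of gene reads, log scale) in cells grouped by their Il6 level (x axis, CPM), with a blue line for each male id, a red line for each female id and the mean over the 5 ids in black. The mean of Cxcl1 goes from 194 to 557 CPM between the last 2 bands. Has1 goes up in the band of 10 to 50 CPM already in every id but mouse 2.

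The genes were not found in every Il6-positive cell. Has1 reached 50 CPM in 93 of 212 Il6-positive cells (43.9%) and in 218 of 1084 Il6-low cells (20.1%). Cxcl1 did so in 142 (67.0%) and 415 (38.3%), Mt2 in 125 (59.0%) and 332 (30.6%), and Ptgs2 in 33 (15.6%) and 83 (7.66%). Of Has1, Cxcl1 and Ptgs2, 45 Il6-positive cells (21.2%) had none at this level, 79 (37.3%) had 1, 75 (35.4%) had 2 and 13 (6.13%) had all 3. In Il6-low cells 525 (48.4%) had none, 418 (38.6%) had 1, 125 (11.5%) had 2 and 16 (1.48%) had all 3. Cells of an id share their mouse id and at most 2 plates, so these shares are given without a test.

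The same Il6 limits applied to Dpp4-positive ASC, which the selection of the 212 cells did not use, left, with the minimum lowered to 5 cells per sum, 3 mouse ids with 7 against 73 cells (mouse 4), 50 against 199 (mouse 2) and 23 against 88 (mouse 6_7). Of 8097 genes 0 were called by edgeR's quasi-likelihood test, 113 had an unadjusted p under 0.05 and 74 of these (0.914% of all tested) were higher. Immediate early genes were positive in 24 of 30 tested, 10 were higher at the unadjusted limit, and their median was 0.69, beside -0.09 over all 8097 genes. Zfp36 had a log2 difference of 1.28, Cebpd 1.22, Mt2 1.63 and Socs3 1.03. Has1, by contrast, had 147 against 110 CPM in mouse 4, 104 against 312 CPM in mouse 2 and 81.4 against 271 CPM in mouse 6_7, lower in Il6-positive cells of both female ids.

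Male and female Il6-positive cells were compared over the 2 male and 3 female sums. Of 4915 genes 14 (0.285%) were called, 7 higher and 7 lower in males. Xist, the X-inactivation transcript, and its overlapping partner Tsix were lower in males, matching the labelled sexes, although reads of this pair cannot be told apart. C7, a late complement component, had 323 and 564 CPM in the male sums and 10.2, 11.2 and 12 CPM in the female sums (log2 difference 5.29, SE 0.48, adjusted p = 0.00237). Igfbp3, which binds insulin-like growth factors, had 4.89 and 0.522 CPM in males and 472, 499 and 626 CPM in females (-7.61, SE 0.95, adjusted p = 0.0169). The groups did not overlap for either gene, and both stayed called whichever female id was left out. In the fits without mouse 4 or 8, which left 1 male id, the log2 difference was 5.75 and 4.79 for C7. For Igfbp3 it was -9.89 and -6.83. The number called was 2 without mouse 4, 6 without mouse 8 and 23 without mouse 3.

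The other genes higher in males were Sult1e1, the estrogen sulfotransferase (11.30, SE 1.10, adjusted p = 0.00314), Trf, the iron carrier transferrin (4.11, SE 0.60, adjusted p = 0.0348), Ace, angiotensin-converting enzyme (3.69, SE 0.53, adjusted p = 0.0345), Col6a5, a collagen VI chain, Fam20c, a secretory kinase, and Cilp, a matrix protein. Those lower were Akr1c14, a steroid-reducing enzyme (-13.60, SE 1.22, adjusted p = 0.00326), Olfm2, Spry2, an inhibitor of growth factor signaling, and Myoc. Akr1c14 passed the count filter only through the female sums, with 0 reads in both male sums. Sult1e1 passed it only through the male sums, with 19, 0 and 1 reads in the female ones. In the fits that left out 1 female id, Xist, Tsix, Akr1c14 and Sult1e1 were called each time. Col6a5 was not called without mouse 3, Fam20c, Olfm2 and Spry2 not without mouse 2, and Trf not without mouse 6_7. Ace was called only without mouse 3, Myoc only without mouse 6_7 and Cilp in none of them. Without mouse 2 or 3 Myoc fell under the count filter and was not tested. The fits without mouse 4 or 8 left 1 male id and did not test Sult1e1 and Fam20c, so their calls are not given by gene. For all 14 genes the Il6-low cells of the same ids lay on the same side. C7, for example, had 238 and 479 CPM in male and 5.83, 8.17 and 4.93 CPM in female Il6-low cells (mice 2, 3 and 6_7), and Sult1e1 had 515 and 251 CPM in male and 0.132, 0.0248 and 0.0188 CPM in female ones.

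**Figure D5:**
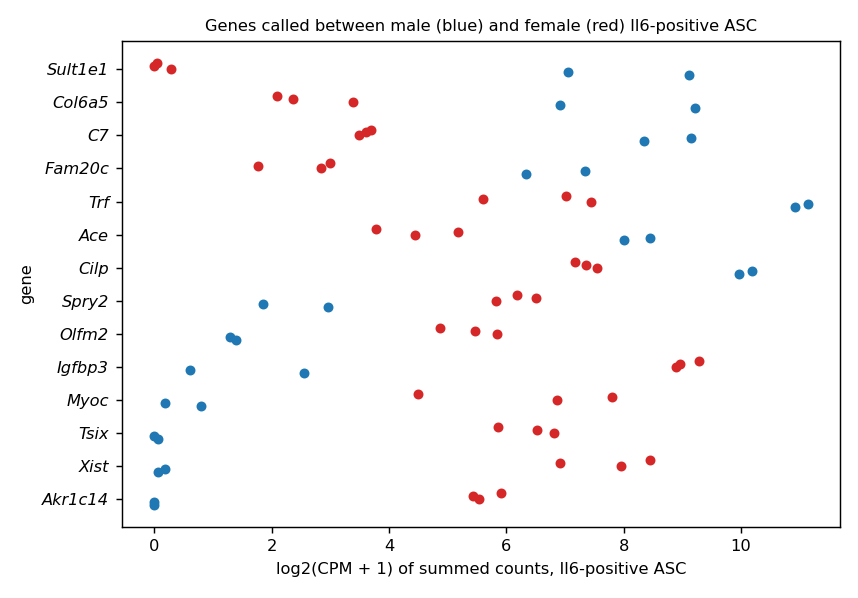
Log2(CPM + 1) of summed Il6-positive cells (x axis) for the 14 genes called between male (blue) and female (red) mouse ids (y axis), 1 point per id. The male and female points of each gene do not overlap, as the genes were called for.

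Whether the Il6-positive state differed by sex was tested as the difference of the paired differences. Of 10300 genes 0 (0.0%) passed in edgeR's quasi-likelihood test, with 504 at an unadjusted p under 0.05, while the likelihood ratio test called 14 and DESeq2 55. Among these 504, Ptgs2, chosen after its values were seen, had an additional log2 difference of 1.99 in males (quasi-likelihood test, unadjusted p = 0.0072). Of the genes called between the sexes, Myoc had -4.54 (same test, unadjusted p = 0.00025, adjusted p = 0.588). Igfbp3 had -3.63 (same test, unadjusted p = 0.00202, adjusted p = 0.940). With 2 male ids, one of which was mouse 8 with its high ribosomal RNA share, the precision of this comparison was low.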

How the data were processed

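Smart-seq2 libraries of single sorted cells were read from the table of raw counts that the authors deposited. Per the study's methods and processing notes, reads were demultiplexed with bcl2fastq, mapped to mm10 with STAR, quantified per gene with Salmon and filtered by reads, genes, mitochondrial and spike-in share, and the counts carry no further normalization. Without molecular identifiers, a read is not a molecule. The 3261 cells had 149931 to 3548334 total reads, with a median of 616939 gene reads. Gene symbols were found for 23432 of 23507 gene ids. The gate of the sort discriminated doublets and no doublet caller was run.

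CPM was computed over gene rows without the spike-ins. The members and the gene lists were chosen with earlier results of these data known. Counts were summed per mouse id and cell group where both groups held at least 10 cells (5 for Dpp4-positive ASC, a comparison added after seeing the data), and genes with a summed count over 600 in at least 2 sums were tested with edgeR 4.0.16 (R 4.3.3), TMM normalization and the mouse id as a block, by the quasi-likelihood test with Benjamini-Hochberg adjustment. Same-numbered sums came from the same mouse id, which pairs them. The genes of the selection rule were removed before adjustment. Sex was tested on the Il6-positive sums without a block. Shares and quality were compared by exact permutation tests (scipy 1.17.1). Named genes were to be the 4 proposed markers, called genes of the lists and up to 12 called genes in each direction, and all others were named after their values were seen. On simulated counts, the paired test recovered 51.5% of 200 genes changed 4-fold among 10300 genes. For sex it recovered 17.0% among 4915 genes, and for the difference between sexes 12.5% among 10300. Wrong calls numbered 2, 4 and 4 in these simulations, beside 103, 34 and 25 recovered genes. Alternatives were DESeq2 1.42.0, limma 3.58.1, edgeR's likelihood ratio test, other normalizations, filters, Il6 limits, sorts and cell sets, thinned cells, no block and each mouse id left out. Promoter windows came from RefSeq (GRCm38.p6), with entries for 59 of 75 genes looked up.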

Additional observations from a re-analysis of the deposited data

Results flagged for a closer look

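In 9 of 79 sets of values examined, 1 mouse id stood apart from the others by Dixon's criterion, which chance alone meets in about 1 of 20. The values are log2 ratios of Il6-positive to Il6-low sums. Mouse 8 accounted for 8 of them: Fosb at 1.91 (median of the 5 ids 0.57), Stat3 at 1.28 (0.22), Hspa8 at 1.32 (0.22), Pi16 at -3.25 (-0.65), Atf3 at -0.19 (0.98), F3 at 1.62 (0.40), Nfkbiz at 2.89 (1.19) and Maff at 2.70 (1.28). Fosb, Atf3 and Maff are AP-1 and related factors, Hspa8 a constitutive chaperone, F3 the initiator of coagulation and Pi16 a marker of ASC2. In mouse 4, Csrnp1 stood at 0.54 (median 1.44). The Il6-positive sum of mouse 8 held 18 cells, the fewest of the 5 ids. The ribosomal RNA entries held 57.9% and 55.3% of the gene reads in its Il6-low and Il6-positive sums. The part of the cell number and of these entries in the ratios was not tested.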

How the results depend on the processing

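Has1 was called under 23 of 24 alternatives, the exception being the fit with no replicate block, in which 0 genes were called and Has1 had an adjusted p of 1.00 in edgeR's quasi-likelihood test at a log2 fold change of 2.24. Pairing by mouse id thus changed this call, and the interaction had 0 genes called with and without the replicate block. Zfp36 passed the adjusted p in 19 of 24 and Cxcl1 was called in 11 of 24.

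The number of genes called between Il6-positive and Il6-low cells was 2 with the adjusted p alone, with Il6 at 20 CPM or more, with PDGFRB-positive sorts only, with at least 20 cells per sum, and, chosen after seeing the data, without plate 709 and without the ribosomal RNA entries. It was 3 against cells with no Il6 read and 3 in cells thinned to 100000 gene reads. It was 25 with the likelihood ratio test, 67 with DESeq2 and 14 with limma on mean log2(CPM + 1), and with the adjusted p alone 67, 135 and 57. Leaving out 1 mouse id gave 1 to 2. Between the sexes the number was 171 with the likelihood ratio test, 224 with DESeq2, 6 with filterByExpr and 2 to 23 with 1 id left out. For the interaction it was 14 and 55. The causes of these moves were not tested.

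Signs turned in small differences only. The difference in detected genes was -43.25 with PDGFRB-positive sorts and -35.25 to 81.5 with 1 mouse id left out. The difference in spike-in share ran from -0.0917 to 0.0206 percentage points with 1 id left out. That in mitochondrial share was -0.00973 at Il6 of 100 CPM or more, -0.00807 with PDGFRB-positive sorts and -0.00307 to 0.0341 with 1 id left out. Mmp3 had a log2 difference of -0.39 in thinned cells, and Csf1 had -0.043 in thinned cells and -0.020 with limma. Of 1753 values of 74 genes under alternatives, 1713 kept their direction and their side of the threshold, 36 newly passed it, 1 no longer did and 3 turned sign. With 5 mouse ids and 18 to 88 Il6-positive cells per sum, smaller folds were often not detectable.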
